A study of Mus musculus with 8 samples.

Results

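The list described here holds 14401 regions of accessible chromatin, out of 41425 region entries in the 3 deposited lists. It comes from the mouse hepatoma line Hepa-1c1c7, kept in Alpha-MEM with serum and given 0.1 µM potassium chromate, dissolved in water, for 72 h. The labels tie the list to the 2 libraries of this dose, and its name joins that dose with the control. The control group is 2 libraries of the same line at 0 µM. Its members are all regions deposited under that pair of names, with no further selection here. Its name calls the authors' list filtered, without spelling out the limits. The other lists, of 11130 regions at 0.5 µM and 15894 at 1 µM, name the same control. A single list stands for both libraries of the dose, so replicate errors could not be computed and no difference was tested. The sources used here do not say in which direction a listed region differed from the control, or whether it differed.

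ATAC-seq maps open chromatin with the Tn5 transposase, which inserts sequencing adapters where DNA is not wrapped in nucleosomes. Chromate is taken up through anion transporters and reduced inside the cell, and the reduced chromium binds DNA and proteins. The title of the series asks about the access of CTCF, a zinc finger protein that marks loop boundaries and insulators, to promoters of genes whose expression changed. Promoters of active genes are usually kept free of nucleosomes just before the transcription start, and a promoter rich in CpG dinucleotides is often open in many cell types.

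The promoters printed here carry the sequence results that follow. Each is the stretch of 250 bases that ends just before a transcription start, read 5′ to 3′ on the gene's own strand (RefSeq, GRCm38.p6, the assembly of mm10), and each lies entirely under a region of the 0.1 µM list. The first 3 are the highest-ranking promoters with a CTCF core motif, in capitals. They belong to Cryz, a quinone reductase known as zeta-crystallin (chr3:154596461-154596710, plus strand), Gzf1, a zinc finger protein (chr2:148680870-148681119, plus strand), and Entpd6, a nucleoside diphosphatase (chr2:150748830-150749079, plus strand).
Cryz: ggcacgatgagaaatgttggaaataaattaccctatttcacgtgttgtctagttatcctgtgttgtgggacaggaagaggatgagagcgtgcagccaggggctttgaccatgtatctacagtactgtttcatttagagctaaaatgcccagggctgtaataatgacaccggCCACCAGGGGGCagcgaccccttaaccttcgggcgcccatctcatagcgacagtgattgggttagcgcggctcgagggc
Gzf1: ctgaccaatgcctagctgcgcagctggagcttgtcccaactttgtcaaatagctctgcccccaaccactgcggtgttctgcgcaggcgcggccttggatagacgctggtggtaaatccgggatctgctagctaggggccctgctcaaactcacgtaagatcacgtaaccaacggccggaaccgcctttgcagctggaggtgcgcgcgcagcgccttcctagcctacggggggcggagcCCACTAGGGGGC
Entpd6: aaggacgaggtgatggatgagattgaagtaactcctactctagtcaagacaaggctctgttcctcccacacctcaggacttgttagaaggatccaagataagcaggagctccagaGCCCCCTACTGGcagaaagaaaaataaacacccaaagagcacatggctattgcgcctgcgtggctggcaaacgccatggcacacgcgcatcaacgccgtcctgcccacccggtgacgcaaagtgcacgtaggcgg
The next shows the ETS core CCGGAAG, here on the opposite strand, in the promoter with the highest-ranking region off chromosome 15. The next promoters by rank, of Aspm and Fh1, hold no such match and are not shown. The one shown is that of Ppp2r1a, which encodes a scaffold for a major serine/threonine phosphatase (chr17:20945204-20945453, plus strand).
Ppp2r1a: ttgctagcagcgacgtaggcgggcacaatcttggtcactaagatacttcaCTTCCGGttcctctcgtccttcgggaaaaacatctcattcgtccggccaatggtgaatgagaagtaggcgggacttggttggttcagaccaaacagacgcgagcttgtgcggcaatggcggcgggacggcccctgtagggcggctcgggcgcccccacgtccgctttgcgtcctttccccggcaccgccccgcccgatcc
Gpr39, a zinc-sensing receptor (chr1:125676746-125676995, plus strand), shows an AP-1 site, TGANTCA with C or G at the N. Tasp1, the protease taspase 1 (chr2:140066806-140067055, minus strand), and Mettl4, an adenine methyltransferase (chr17:94750020-94750269, minus strand), show the core of the metal response element, TGCACNC or TGCGCNC. Cdk5rap2, a centrosome protein (chr4:70410436-70410685, minus strand), shows the core of the antioxidant response element, TGACNNNGC.
Gpr39: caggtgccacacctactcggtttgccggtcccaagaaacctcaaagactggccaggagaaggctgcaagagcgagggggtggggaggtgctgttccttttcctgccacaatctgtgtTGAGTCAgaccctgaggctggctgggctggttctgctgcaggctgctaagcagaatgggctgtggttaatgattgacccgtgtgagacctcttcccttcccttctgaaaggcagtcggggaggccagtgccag
Tasp1: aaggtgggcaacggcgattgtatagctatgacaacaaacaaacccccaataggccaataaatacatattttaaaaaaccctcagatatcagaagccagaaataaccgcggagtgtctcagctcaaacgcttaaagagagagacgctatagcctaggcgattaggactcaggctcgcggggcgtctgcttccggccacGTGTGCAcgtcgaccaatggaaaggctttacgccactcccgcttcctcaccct
Mettl4: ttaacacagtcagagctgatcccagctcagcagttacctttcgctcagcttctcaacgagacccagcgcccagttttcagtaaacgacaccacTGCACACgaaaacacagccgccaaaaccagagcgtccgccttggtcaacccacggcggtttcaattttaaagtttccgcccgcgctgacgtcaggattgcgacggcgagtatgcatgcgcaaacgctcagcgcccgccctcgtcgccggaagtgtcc
Cdk5rap2: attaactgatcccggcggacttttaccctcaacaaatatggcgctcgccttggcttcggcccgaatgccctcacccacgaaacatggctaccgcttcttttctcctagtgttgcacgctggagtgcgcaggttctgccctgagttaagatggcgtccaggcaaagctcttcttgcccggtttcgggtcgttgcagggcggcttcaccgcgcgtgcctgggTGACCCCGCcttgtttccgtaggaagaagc

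The regions were short and mostly far apart. Widths ran from 199 to 3167 bp, with the middle 50% between 251 and 492 bp, and 539 regions (3.74%) were 1000 bp or wider. The authors' score, a whole number of unstated scale, ran from 4 to 520 with a median of 11. It serves here only to rank regions within the list, with rank 1 as the highest score. Wider regions had higher scores (a Spearman correlation of 0.647 across the 14401 regions of these pooled libraries, which are not independent). The gap from one region to the next had a median of 44.2 kb, and the largest was 13.3 Mb. Gaps under 1 kb made up 9.71% of 14381 and gaps of 10 kb or less 24.1%.

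Regions did not follow the density of genes along the chromosomes. Chromosome 15 held 2.43 regions per protein-coding gene, chromosome 1 held 1.38, chromosome 3 held 1.21 and chromosome 18 held 1.21. The lowest values were 0.252 on the X, 0.274 on chromosome 9 and 0.313 on chromosome 11. Chromosomes 7 and 11 had the most coding genes per Mb (14.0 and 13.2) and carried 5.21 and 4.13 regions per Mb, while chromosome 1 with 6.17 genes per Mb carried 8.49 regions per Mb. Median widths per chromosome stayed between 315 and 367 bp. On chromosome 15, 52.1% of regions lay between genes, the highest share, and 27.8% did so on chromosome 19, the lowest.

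**Figure D1:**
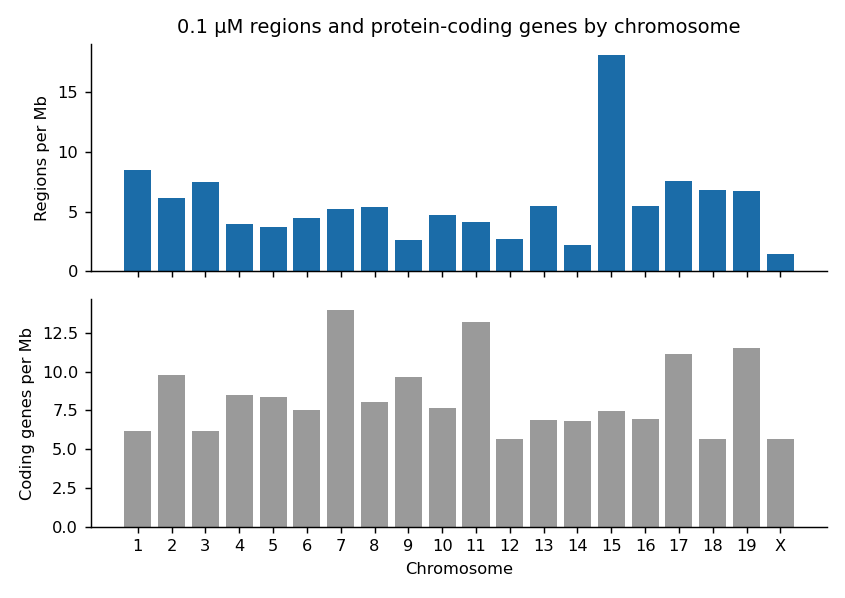
The upper bars give regions of the 0.1 µM list per Mb for each chromosome and the lower bars protein-coding genes per Mb, both counted up to the end of the last gene of the reference table. Chromosome 15 stands at 18.1 regions per Mb with 7.47 coding genes per Mb, and chromosome 7 at 5.21 regions per Mb with 14.0 coding genes per Mb.

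The highest-ranking regions off chromosome 15 lay at gene starts and far from genes alike. Rank 5 belonged to chr17:20944636-20945977, a region of 1342 bp whose midpoint lay 148 bp before the start of Ppp2r1a. Rank 13 lay at the start of Aspm, a spindle pole protein (chr1:139454039-139455667, 1629 bp), rank 19 at that of Fh1, the fumarate hydratase of the citric acid cycle (chr1:175624870-175626259, 1390 bp), and rank 22 at that of Zfp386, a zinc finger gene (chr12:116047372-116048214, 843 bp). Rank 11 lay at an end of Gm45871 and a second region of rank 19 at an end of Cyb5a, cytochrome b5, both on chromosome 18. Rank 12 lay inside Pigk, a subunit of the enzyme that attaches GPI anchors. The others were 85.8 kb from an end of the receptor gene Adgrl4 (rank 17), 52.4 kb from Tmem161b (rank 23) and 174 kb from Adcyap1, which encodes the neuropeptide PACAP (rank 24). On chromosome 15 the first 3 ranks lay at ends of Eny2, Sdc2 and Emc2. All 13 of these regions also appeared at 0.5 and 1 µM.

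Of the 100 highest ranks, 41 lay at a listed gene start, 32 between genes and 16 inside a gene, and 50 were 1000 bp or wider. All 100 were touched by a region of each other list. The highest ranks found in neither other list were far lower. They were rank 1295, 39.99 kb from Ubl3 (chr5:148464449-148464830), rank 1916 inside Eda2r, a receptor of the tumour necrosis factor family (chrX:97372916-97373224), and rank 2050 inside Eya4, a transcriptional coactivator (chr10:23203901-23204297).

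A start could be placed for 17274 of 21631 protein-coding genes (79.9%), from 21045 promoter windows of the reference. The table used here lists none on chromosome 18 and 54.4% of genes on chromosome 15, so the share of regions at starts is a lower bound. Shares of genes with a region at the start count only genes with a listed start. Within 1 kb of a listed start lay the midpoints of 3598 regions, or 24.98% of the list (95% Wilson interval 24.3 to 25.7, for counting error only). Leaving out chromosomes 15 and 18 the share was 29.1%. The other end of a gene of known direction, or an end where several genes meet, held 184 regions (1.28%), and ends of genes with no listed direction held 779 (5.41%).

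Around a start the regions were centred slightly upstream. The median offset was -25 bp, the middle 50% ran from -128 to 86 bp, and 2067 of 3598 (57.4%) lay upstream. The fullest 100 bp lay directly before the start with 982 regions, against a median of 11.5 per 100 bp from 1500 to 2000 bp on either side. Within 250 bp of the start lay 2774 (77.1%), and 2621 (72.8%) covered it. Regions at starts were wider than those inside genes or between them, with a median of 420 bp against 316 bp and 315 bp. At ends of genes with no listed direction the median was 439 bp. The median rank percentile was 55.2 both at starts and at those ends, against 50.3 inside genes and 44.8 between.

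**Figure D2:**
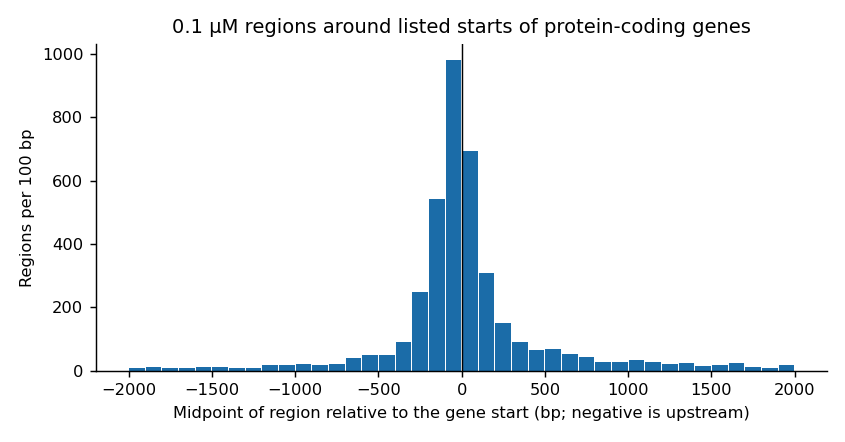
Bars give the number of 0.1 µM regions per 100 bp by the distance of the region's midpoint from the nearest listed start of a protein-coding gene, with negative values upstream. The peak of 982 regions is in the 100 bp before the start. The bars beyond 1500 bp run from 8 to 26, with a median of 11.5.

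Inside genes lay 4159 regions (28.9%). In genes of 20 kb or longer with known direction they were spread nearly evenly, with 29.2%, 23.2%, 22.3% and 25.3% in 4 equal parts of the gene counted from its start (2828 placements, with starts and ends left out). Between genes lay 5681 regions (39.4%), at a median of 48.0 kb from the nearest end of a coding gene. Of these, 402 (7.08%) were more than 500 kb away. The farthest, 2124 kb from Pcdh9, lay in a gene-poor part of chromosome 14 (chr14:90889741-90890195, rank 7522) and was in neither other list.

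Some of the regions between coding genes lay at non-coding genes. Long non-coding RNA genes had a region within 1 kb of a listed start in 690 of 9520 cases (7.25%), and 246 of the 5681 regions between coding genes (4.33%) lay at such a start. Of 757 regions at a long non-coding start, 400 also lay at a coding start. MicroRNA hairpins had a region within 1 kb in 28 of 1005 cases (2.79%). Outside coding genes and coding gene ends there were 8 such hairpins, and the 4 with the highest ranks are shown, with this choice made after their values were seen. Mir17 and Mir18, neighbours in a cluster known for promoting cell proliferation, shared a region of rank 2545 (chr14:115042160-115042896). Mirlet7i, of the let-7 family known for restraining growth, had one of rank 3815 (chr10:122986189-122986757), and Mir210, known for its induction by hypoxia, one of rank 4156 (chr7:141221731-141222067). Their main mature forms are given with the seed, bases 2 to 8, in capitals. The 4 seeds differ.
mmu-miR-17-5p: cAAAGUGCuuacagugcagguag
mmu-miR-18a-5p: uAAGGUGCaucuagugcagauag
mmu-let-7i-5p: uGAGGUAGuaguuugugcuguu
mmu-miR-210-3p: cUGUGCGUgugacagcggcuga

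Among the 17274 coding genes with a listed start, 3493 had a region within 1 kb of it, a background of 20.2%. Gene groups of basic cell functions were compared with that share, without a test, since their members were chosen with earlier results of these data known. Of 32 groups, 20 lay above 20.2% and 12 below. Genes with a region had a median rank percentile of 59.6 at the start.

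Groups that make and process RNA and protein are given first. Aminoacyl-tRNA synthetases, which load transfer RNAs with amino acids, had regions at 8 of 13 starts (61.5%), led by Dars (chr1:128416599-128417955, rank 1486), Tars (rank 1916), Farsb (rank 2368) and Eprs (rank 2962). Translation factors had them at 16 of 51 (31.4%), with the initiation factor subunit Eif3f at rank 279 (chr7:108934048-108934687), the cap-binding protein Eif4e at 1151 and Eif5b at 3251. Splicing factors had them at 24 of 59 (40.7%), led by Srsf11 (chr3:158036287-158036946, rank 93), Prpf4 and Srsf7 (both rank 2050) and Srsf6 (rank 2216). Polymerase II, Mediator and general initiation factors had them at 21 of 72 (29.2%), with Gtf2b at rank 243 and Taf10 at 596. The nuclear pore had them at 12 of 21 (57.1%), with Nup107 (chr10:117792502-117793176) at rank 1151, Nup93 at 2761 and Tpr at 2962. With only the 50% of regions of highest score, translation factors were below the background, at 9.80% against 12.6% of all genes.

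Protein turnover and organelle traffic genes were also above the background. Autophagy and lysosome genes had regions at 14 of 26 starts (53.8%). Both Gabarapl1 (chr6:129532502-129533809, rank 390) and Gabarapl2 (chr8:111939737-111940258, rank 622), which decorate the autophagosome membrane, were among them. Vesicle coat and Rab genes had 42 of 112 (37.5%), with Rab5b at rank 179 and Sec23a at 827. Proteasome subunits had 11 of 32 (34.4%), with Psma2 and Psmd10 both at rank 3528. The region of Psmd10 also served Atg4a, so these members of different groups are not independent. Cullin, F-box and ubiquitin-conjugating genes had 27 of 99 (27.3%). Fbxo4 at rank 10 (chr15:3978894-3980228) and Skp2, which targets the cell cycle inhibitor p27, at rank 390 led them, both on chromosome 15. Mitochondrial import genes had 8 of 24 (33.3%), where the chaperone pair Hspd1 and Hspe1 shared a single region between their starts (chr1:55087973-55088428, rank 1295).

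Stress and death pathways were likewise above the background. Of ER stress and unfolded protein response genes, 10 of 24 (41.7%) had a region, with the chaperone partner Dnajc3 (chr14:118937520-118938355) at rank 373, the lectin chaperone Canx at 2216 and Asns, asparagine synthetase, at 3251. Apoptosis genes had 12 of 28 (42.9%), led by Casp2 (chr6:42264478-42265118, rank 279), Casp6 (rank 557), the death receptor gene Fas (chr19:34290490-34290877, rank 2050) and Bcl2l11, which encodes the killer protein BIM (rank 2368). RAS and MAP kinase genes had 11 of 31 (35.5%), with Map3k3 at rank 557, Map2k6 at 2545, Mapk9 at 3251 and Dusp6, a phosphatase that switches ERK off, at 4156.

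Developmental signalling was more mixed, and the 95% Wilson interval of each group in this paragraph held the 20.2% of all genes at starts. Notch genes had regions at 7 of 21 starts (33.3%), among them the ligand gene Jag1 (rank 2962) and the protease gene Adam17 (rank 3251). TGF-beta and BMP genes had 8 of 26 (30.8%), with the target Id2 at rank 2368 and the activin subunit gene Inhba at 2962. Hippo pathway genes had 6 of 22 (27.3%), with the coactivator gene Wwtr1 at rank 1151 and the YAP target Ccn1 at 1916. Wnt genes had 5 of 37 (13.5%), where Lgr4, a receptor for R-spondins, stood at rank 179 (chr2:109917267-109918350) and the next, Fzd4, at 8377. Nuclear receptors had 7 of 41 (17.1%), with the mineralocorticoid receptor gene Nr3c2 at rank 390 and Esrrg at 2761. Insulin and mTOR genes had 5 of 27 (18.5%), with Pik3r1 at rank 1295, and clock genes 4 of 18 (22.2%), with Fbxl21 at rank 1151 and Cry1 at 3528. Over the whole gene, nuclear receptors (34.0%) and insulin and mTOR genes (38.7%) were overlapped more often than the 24.6% of all coding genes. At starts their 95% Wilson intervals (8.5 to 31.3% and 8.2 to 36.7%) held the 20.2% of all genes. A change of side between starts and whole genes is therefore not claimed. The whole-gene shares were not adjusted for gene length. Genes with 5 or more regions had a median length of 204 kb, against 17.3 kb for all genes. Integrins, syndecans and glypicans had 6 of 25 (24.0%), led by Itgb1 at rank 148 (chr8:128684723-128686754), but 8.0% against 12.6% of all genes with the 50% of highest score. Insulin and mTOR genes were above all genes, at 22.2% against 21.4%, when 2.5 kb from the start was allowed. The start of Sdc2 was not listed and is not counted there.

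Gene starts of sensory, immune and excitable-cell families nearly all lacked a region. Olfactory receptors had a region at 3 of 940 starts (0.319%), in Olfr243 (rank 1674), Olfr433 (rank 3815) and Olfr304 (rank 12806). Vomeronasal receptors had 0 of 321, defensins 0 of 45, voltage-gated potassium channels 0 of 25 and protocadherins 0 of 9. Over the whole gene, 25 of 69 protocadherin genes (36.2%) were overlapped somewhere, against 24.6% of all coding genes. However, a single run of 5 regions (chr18:37806072-37825348) lies across the overlapping Pcdhga, Pcdhgb and Pcdhgc genes. The same regions are thus counted for many of these genes, and the 36.2% is not a count of separate places. Taste receptors had 1 of 34, glutamate and GABA receptors 1 of 32 and interleukins and chemokines 1 of 54. Keratins had 1 of 36, which was Krt8, a keratin of simple epithelia and liver. Over the whole gene, a region overlapped 9 of 74 interleukins and chemokines (12.2%), 5 of 34 potassium channels (14.7%) and 5 of 46 glutamate and GABA receptors (10.9%). Many of these families sit in tandem arrays, so their members are not independent of each other.

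The liver label was checked on 19 hepatocyte marker genes found in the reference. A region lay at 4 of 17 listed starts, those of the liver transcription factor genes Foxa2 (chr2:148046309-148047104, rank 1674), Cebpb (rank 6118) and Foxa1 (rank 6792) and of Krt8 (rank 7522), or 23.5% against 20.2% of all genes. With the widest 50% of regions this order turned, at 11.8% against 14.0%. By overlap with the gene itself, 5 of 19 markers (26.3%) had a region, against 24.6% of all coding genes. Within the gene or 10 kb of its ends, 8 of 19 had a region, among them Afp, the fetal albumin relative, Apoa2, Fgb and Nr1h4. The share of all genes in that wider window was not computed. Foxa2 held 5 regions and Nr1h4 4. Among those with none were Alb, Apoa1, Apob, Apoh, Cebpa, Foxa3, Hnf4a, Krt18, Serpina1a and Ttr. A gene without a listed region is not shown to be closed.

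**Figure D3:**
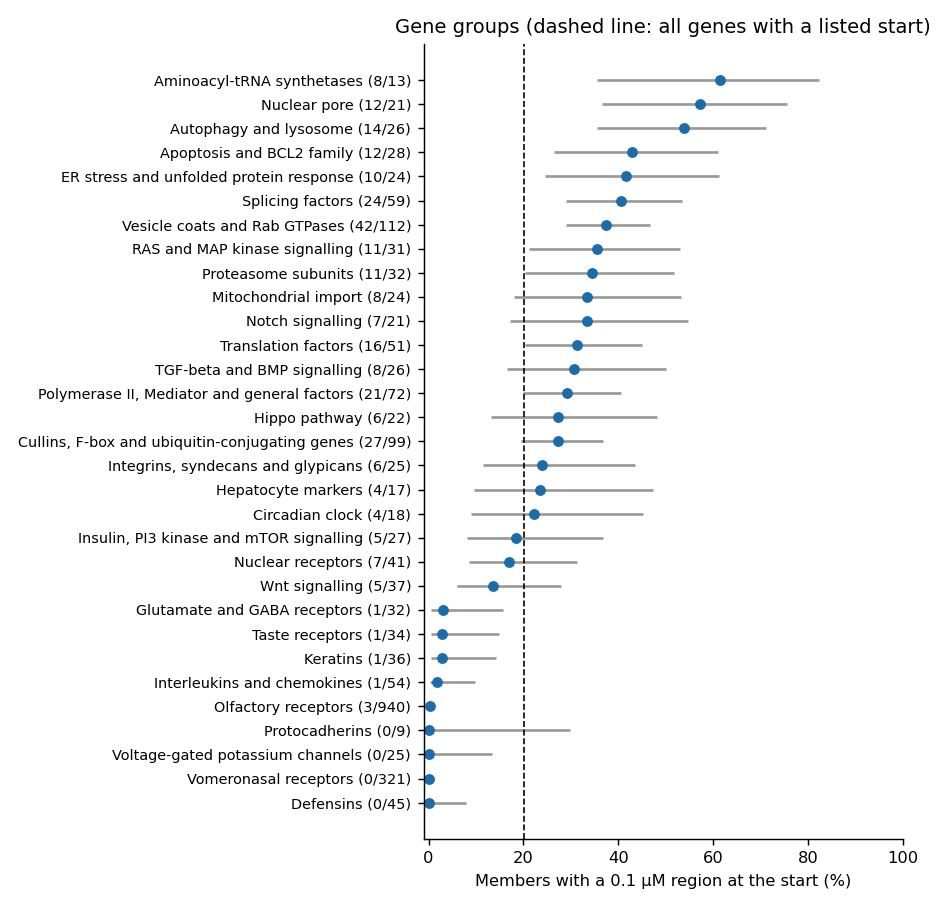
Points give, for 31 groups, the share of members with a listed start that had a 0.1 µM region within 1 kb of it, lines the 95% Wilson interval for counting error only, and the dashed line the 20.2% of all genes. Aminoacyl-tRNA synthetases (61.5%) and the nuclear pore (57.1%) are at the top, and vomeronasal receptors, defensins and potassium channels are at 0.

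Pairs of genes that start back to back held regions more often than other genes. There were 748 pairs of coding genes on opposite strands whose starts pointed away from each other within 1 kb. Of the 1483 genes in them, 634 (42.8%, interval 40.3 to 45.3) had a region at the start, against 2859 of 15791 others (18.1%, interval 17.5 to 18.7). A region lay at both starts of 314 pairs and at either start of 325 (43.4% of the 748 pairs). The starts of a pair lay a median of 151 bp apart, so the same region usually counts for both. The interval for paired genes treats them as independent. The window around a paired start also holds the partner's start, so the shares of paired and other genes do not compare like windows. Examples, chosen after their values were seen, were Drosha, the nuclease that frees microRNA hairpins, with 6030458C11Rik (rank 16, 158 bp apart), Xrcc4, a factor of DNA end joining, with Tmem167 (rank 93, 59 bp), and Rpa3, a subunit of the single-strand DNA binding protein RPA, with Umad1 (rank 220, 147 bp). The Cryz promoter printed above is shared with Tyw3, a transfer RNA modification enzyme, 99 bp away. Regions at paired and at other starts had like widths (median 460 and 448 bp) and the same median rank percentile of 59.6.

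Genes with several distant starts, where they had a region, mostly had it at some of the starts and not at all. Of 1287 genes with listed starts more than 2 kb apart, 335 (26.0%) had a region, against 20.2% of all coding genes with a listed start. Several starts give a gene more windows for a region, so these shares do not compare like windows. A region lay at some of the starts in 303 genes and at all in 32. The most upstream start had a region in 233 of the 335 (69.6%). The share that the number of starts alone would give was not computed, so no preference for upstream starts is claimed.

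Promoters under a region differed in base composition from the rest. A window of 300 bp, from 250 before to 50 after a start, was overlapped by a region in 3676 of 21045 cases, a background of 17.5%. Overlapped windows had a median GC content of 62.3% (middle 50% from 56.3 to 67.7) and a ratio of observed to expected CpG of 0.811. Other windows had 55.0% (47.0 to 63.3) and 0.468. A region overlapped 4.96% of windows under 50% GC, 17.1% from 50 to 60%, 27.9% from 60 to 70% and 24.6% above. Rank ran the other way: the median rank percentile was 69.95 in the lowest GC class and 55.2 in the highest.

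Motifs were counted on both strands of each window, as matches of letters. The ETS core CCGGAAG, bound by ETS factors of housekeeping promoters, stood in 24.0% of overlapped and 9.07% of other windows, with 11.7% over all. It was more frequent in overlapped windows in each GC class, at 12.4% against 2.30%, 23.2% against 10.5%, 28.6% against 16.2% and 20.1% against 10.1% in order of GC. The GC box GGGCGG, bound by SP1 and KLF factors, stood in 69.9% against 41.7% (46.7% over all). Above 60% GC this gap narrowed to 81.2% against 75.5%, and above 70% to 93.5% against 92.2%. The CCAAT box, bound by NF-Y, stood in 45.2% against 37.1% (38.5% over all) and, in the 3 classes above 50% GC, in 53.5% against 38.4%, 43.9% against 34.5% and 32.0% against 19.98%. With overlapped windows in 4 classes by rank, its share was 53.5% in the highest class and 40.6% in the lowest. The TATA box TATAAA went the other way, at 5.47% against 14.2% (12.7% over all), and at 2.77% in the highest class by rank. By GC class it stood in 18.7% against 30.3%, 7.44% against 9.26%, 3.31% against 4.23% and 1.21% against 2.02%.

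Motifs of CTCF and of factors that respond to metals, oxidants and foreign chemicals were counted the same way. The CTCF core, a pattern of 12 positions, stood in 26 of 3676 overlapped windows (0.707%) and 0.535% of the others, with 0.565% over all 21045. By GC class the shares were 1.34% against 0.192% in the lowest, and 0.701% against 0.756% and 0.509% against 0.788% in the middle classes. In the highest class they were 0.905% against 0.395%. The 26 windows are spread over these classes, with 299 overlapped windows in the lowest, so each share rests on few matches. A change of order with GC is therefore not claimed. In 24 of the 26 (92.3%) the region covered the match itself. That share was 92.1% for the ETS core, 91.1% for the CCAAT box and 62.7% for the TATA box, so it was not particular to CTCF. The promoters of Cryz and Gzf1 (both rank 210) and Entpd6 (rank 267) shown above led the 26, with the match beginning 79, 12 and 135 bases before the start. CTCF binds many variants, so this strict pattern finds part of its sites and says nothing of binding. The metal response element core stood in 36.8% of overlapped and 28.1% of other windows (29.6% over all). The order turned above 60% GC, with 39.4% against 41.7% and then 50.8% against 55.8%. Its highest ranks were at Oxct1 (rank 6), a ketone body enzyme whose match lies just after the start, Tasp1 (rank 29) and Mettl4 (rank 37). The antioxidant response element core stood in 16.3% against 12.3% (13.0% over all), led by Zfp622 (rank 9), Cdk5rap2 (rank 55) and Aasdhppt (rank 75). The xenobiotic response element core GCGTG stood in 55.7% against 35.3% (38.8% over all), a gap that narrowed to 63.1% against 55.9% from 60 to 70% GC and 66.4% against 63.7% above. AP-1 sites stood in 3.75% against 4.88% (4.69% over all), led by Fbxo4 (rank 10), Gpr39 (rank 196) and Serpinb8, a protease inhibitor (rank 236). Within GC classes this gap was small, at 7.02% against 7.07%, 4.73% against 4.97% and 3.18% against 3.32%. In the highest class the order turned, at 1.96% against 1.58%.

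Other motifs were counted for comparison. The cyclic AMP element TGACGTCA, which holds no full AP-1 site, stood in 4.11% against 1.87% of windows (2.26% over all), and the NRF1 core GCGCATGC in 5.88% against 3.05% (3.54% over all). The E-box CACGTG stood in 10.01% against 7.47% (7.91% over all) and the YY1 core AAGATGG in 7.34% against 6.06% (6.28% over all). By GC class the E-box stood in 5.35% against 3.30%, 9.11% against 7.74% and 11.8% against 11.1%. Above 70% GC its order turned, at 9.35% against 11.2%. Among motifs of liver factors, the forkhead core TGTTTAC was in 2.86% against 3.07% (3.03% over all) and the C/EBP motif in 2.18% against 2.19% (2.19% over all). Within GC classes the forkhead order turned, at 7.36% against 5.52%, 2.98% against 2.49%, 2.61% against 1.38% and 1.21% against 1.13% in order of GC. The C/EBP motif was likewise more frequent in overlapped windows in the 3 classes up to 70% GC (6.02% against 3.404%, 2.80% against 1.98% and 1.78% against 1.53%) and less so above (0.302% against 0.641%). The direct repeat bound by HNF4 was in 0 overlapped windows and in 10 over all (0.0475%).

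**Figure D4:**
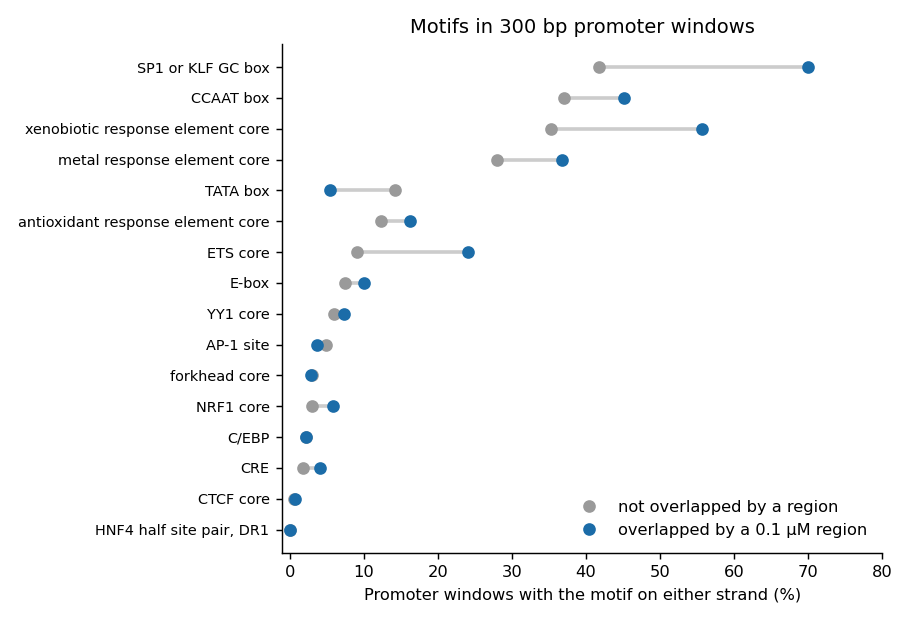
Blue points give the share of the 3676 promoter windows overlapped by a 0.1 µM region that hold each motif on either strand, and grey points the share of all other windows. The widest gaps are those of the GC box (69.9% against 41.7%), the xenobiotic core (55.7% against 35.3%) and the ETS core (24.0% against 9.07%), and the TATA box is lower under regions (5.47% against 14.2%).

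Of all coding genes, with or without a listed start, 5317 of 21631 (24.6%) were overlapped by a region somewhere. A single region lay in 3689 and 2 or more in 1628. The 262 genes with 5 or more had a median length of 204 kb, against 17.3 kb for all genes, and 55 of them were on chromosome 15. Off that chromosome Stard13, which encodes a lipid-transfer domain protein, had the most, with 25 regions over 391 kb (chr5:151037515-151428200), 18 of them also at 0.5 µM and 19 at 1 µM. Pde4d, a cyclic AMP phosphodiesterase, followed with 21 over 1302 kb. Pam, Dlgap1, Plcb1 and the calcium-dependent kinase gene Camk2d had 15 each, and Macrod2 and Vps13d 12 each. Per 100 kb, Stard13 (6.40), Camk2d (5.98) and Pam (5.46) were dense and Macrod2 (0.601) was sparse. On chromosome 15 Csmd3 had 38, of which 7 were also in the 0.5 µM list and 8 in the 1 µM list, Ctnnd2 22 (11 and 16) and the exchange factor gene Trio 18 (14 and 16). The share of regions also found at other doses was thus lower in Csmd3 than in Trio, a description of 2 genes that was not tested.

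Runs of neighbouring regions were counted next. A run was counted where at least 5 regions each lay within 10 kb of the next. There were 92 runs with 538 regions (3.74% of the list) and a median span of 18.3 kb, of which 21 were on chromosome 15 and 20 overlapped no coding gene. The share depended on the settings, at 1.21% with 5 kb, 10.4% with 20 kb and 0.758% with the 50% of regions of highest score. The run with the most regions had 12 regions over 29.5 kb across Bspry, Hdhd3, Alad, Pole3 and 4933430I17Rik (chr4:62495949-62525409), with 9 also at 1 µM and its best rank at 2050. Runs of 10 regions lay at Ctsz, Tubb1, Atp5e and Prelid3b (chr2:174437336-174474000), at the apoptosis mediator gene Dap (chr15:31223152-31265174) and at the acetyltransferase gene Kat2b (chr17:53566086-53587449). A run of 9 lay at Snx24, a sorting nexin gene, on chromosome 18. In these 4 runs all regions were also in the 1 µM list. Regions in runs were wider than others (median 381 against 338 bp) and were also found at 1 µM in 83.8% of cases, against 74.4% outside runs.

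Most of the list was also found at another dose. All lists name the same control, so the overlaps below only describe the list, and the part of the shared control in them was not tested. Of 14401 regions, 7433 (51.6%) were touched by both other lists, 3333 (23.1%) by the 1 µM list alone, 476 (3.31%) by the 0.5 µM list alone and 3159 (21.9%) by neither. The share at listed gene starts was 32.6%, 19.9%, 22.5% and 12.8% in that order, and the median width 457, 298, 276.5 and 238 bp. Regions between genes were in neither other list in 28.4% of cases, those inside genes in 24.4% and those at starts in 11.2%. Regions at starts were also wider and of higher median rank, and these shares were not adjusted for width or rank. With the list in 10 classes by rank, the share also in the 0.5 µM list was 26.3% in the lowest class and 98.8% in the highest, and that in the 1 µM list 45.1% and 99.9%. The share at starts in these classes was 21.2% and 36.4%. Tied scores make the classes unequal, from 855 to 2163 regions.

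**Figure D5:**
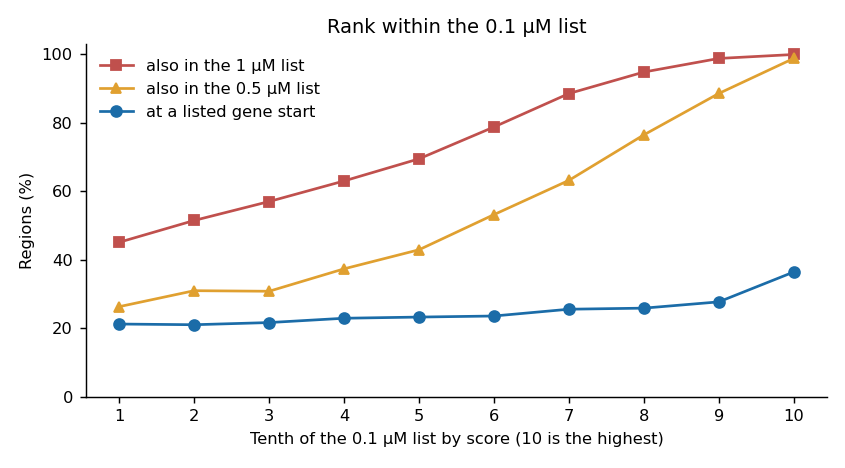
Lines follow the share of 0.1 µM regions also in the 1 µM list (squares), also in the 0.5 µM list (triangles) and at a listed gene start (circles), over 10 classes of the list by score, lowest first. Sharing is 45.1% and 26.3% in the lowest class and 99.9% and 98.8% in the highest, and the share at starts is 21.2% and 36.4%.

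The lists at the other doses were measured the same way. The share of regions at a listed start was 24.98% at 0.1 µM, 30.2% at 0.5 µM and 26.1% at 1 µM. Genes with a region at the start numbered 3493, 3356 and 4114, and genes of back-to-back pairs had one in 42.8%, 42.5% and 51.4% of cases. Under overlapped promoters the ETS core stood in 24.0%, 23.1% and 23.5% of windows, the CTCF core in 0.707%, 0.811% and 0.715%, and the TATA box in 5.47%, 4.37% and 5.49%. Runs numbered 92, 83 and 154 and held 3.74%, 4.95% and 6.20% of regions, the highest value being that at 1 µM. With a single list per dose and shared controls these differences were not tested, and none is called particular to 0.1 µM.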

How the data were processed

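ATAC-seq was run on 8 libraries of Hepa-1c1c7 cells. Per the labels, transposition took 30 minutes, amplification 9 PCR cycles, and about 75 M read pairs of 100 bp were planned. Per the submitters' processing notes, the tools included Bowtie2, Picard and MACS2 and the build was mm10. The name of the deposited list carries a tag beginning with q and the words filtered and unique, with no limit or step spelled out. Versions, depth per library, Tn5 shift and handling of duplicates are not stated there or in the labels. The authors deposited region positions and a score per region, whose scale is unknown. Names run to 14729, so 328 numbers are missing.

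Regions were placed on RefSeq tables of GRCm38.p6 (Python 3.11.15, pandas 2.3.3, numpy 2.4.6, scipy 1.17.1) by midpoint, within 1 kb of a start. Overlap of lists needed 1 bp. Positions are 1-based. Wilson intervals cover counting error only and treat neighbouring regions as independent. Functions were checked on planted regions and motifs.

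The region list, gene groups and motifs were chosen with earlier results of these data known. Named items are the top 10 regions by score off chromosome 15 and the 3 on it, up to 4 top-ranking members of a group, the genes with most regions (8 and 3), 3 genes per motif, the 5 runs with most regions and the hepatocyte markers. A gene group and a marker covered by this rule are not reported here. Among the markers the symbol Tf was not in the reference. Alternatives were other distances, overlaps, score and width limits, and leaving out chromosome 15.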

Additional observations from a re-analysis of the deposited data

How the results depend on the processing

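No paired analysis was possible because each dose has a single list and no library could be left out or paired. The share of regions at a listed start (24.98%) was 27.9% within 2.5 kb, 27.7% in the 50% of highest score, 32.2% in the widest 50% and 27.6% without chromosome 15. Without chromosomes 15 and 18, an alternative chosen after seeing the data, it was 29.1%. The share of genes with a region (20.2%) was 21.4%, 12.6% and 14.0% in the first 3 of these settings, the last 2 of which hold fewer regions by construction. Genes of back-to-back pairs (42.8%) had one in 26.9% and 29.8% with the stronger and wider 50%. The share of regions in runs (3.74%) was 1.21% with 5 kb, 10.4% with 20 kb, 0.758% in the stronger 50% and 3.32% without chromosome 15, so the number of runs depends on the distance chosen. Sharing with the 0.5 µM list (54.9%) was 45.2% at 50% reciprocal overlap, 74.6% in the stronger and 78.6% in the wider 50%. For the 1 µM list (74.8%) these were 64.2%, 91.2% and 93.0%, with 76.0% without chromosome 15. The median GC of overlapped promoters stayed between 62.0% and 62.3%. Over 4 settings, 17 of 32 gene groups lay above the share of all genes each time and 11 below it. Hepatocyte markers, translation factors, insulin and mTOR genes, and integrins with syndecans and glypicans changed sides. Among motifs, the stronger 50% moved the CCAAT box to 47.7% and the TATA box to 4.55%, and the widest 50% moved the TATA box to 4.58%. The unknown depth limits what a missing region can mean.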
